A study of Mus musculus with 3 samples.

Results

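The cytosolic ribosomal protein genes were followed across the cell classes of the mouse dentate gyrus and across 3 single-cell libraries. A gene was a member when its symbol in the count tables was Rps, Rpl or Rplp followed by a number and at most a short suffix, as in Rps4x, Rpl22l1 or Rplp0. The rule took 84 of the 15535 rows listed in at least 1 table, 34 of them for the small (40S) subunit and 50 for the large (60S) subunit. In the GENCODE annotation of the mouse build GRCm38, 79 members are protein-coding genes and 5 are processed pseudogenes (Rps3a2, Rps3a3, Rps4l, Rpl6l and Rpl32l). All but Rps3a3 were listed in all 3 tables, and Rps3a3 was not listed for control. Every member had unique molecular identifiers (UMIs, tags that mark single RNA molecules) in the cells used, 279394 UMIs in all.

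A cytosolic ribosome joins a small subunit, which reads the messenger RNA, and a large subunit, which forms the peptide bonds. Their proteins are made in near-equal amounts, and their genes are among the most strongly expressed in any cell. Most of their messenger RNAs begin at a C followed by a run of C and T, the terminal oligopyrimidine, through which growth signals such as mTOR adjust their translation. A few members have a close relative that can take the same place in the ribosome, among them Rpl22l1 for Rpl22 and Rps27l for Rps27. In the dentate gyrus, stem cells that leave their resting state are known to raise their protein synthesis, and neuroblasts are young neurons still building their cell body and processes.

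The dentate gyrus, the hippocampal region in which neurons are made in adult mice, was dissociated with trypsin and measured as 10x Genomics 3' libraries, 1 for each group. Control mice were 8 weeks old and kept in standard housing, and runner mice were littermates of the same age with a running wheel for 12 days. Aged mice were 14 months old and had no wheel. The sample labels give all 3 groups the strain hGFAP-eGFP, a reporter line in which the human GFAP promoter drives green fluorescent protein, whereas the series description gives WT and mentions the reporter line under aged alone. No sort on the reporter is described, and none of the sources used here says how many mice went into a library. With 1 library per group, differences between groups have no replicate check, and the 95% intervals in brackets cover counting error only. The runner and aged comparisons share the control library.

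Cells needed at least 200 genes and a mitochondrially encoded share of UMIs under 10%, and after doublet calls were removed 513 of 2356 barcodes were used in control, 963 of 3328 in runner and 392 of 2421 in aged, at medians of 1460, 1747 and 1411 UMIs. Clusters made without the member genes were named from marker genes, and each name means only "like" that type. The 7 classes with at least 10 cells in every library were neuroblast-like (led by Sox11, Calb2 and Neurod1), Cajal-Retzius-cell-like (Reln and Ndnf), microglia-like (C1qa and P2ry12), granule-neuron-like, oligodendrocyte-precursor-like (Pdgfra and Olig1), oligodendrocyte-like (Cldn11 and Mog) and astrocyte-like cells (Gja1 and Slc1a3). They held from 12 cells (neuroblast-like, aged) to 353 cells (microglia-like, runner). The granule-neuron-like cluster rested on 4 detected markers and was led by genes shared by many neurons, such as Meg3 and Syt1. Its leading genes held Meg3 and Nrgn of the pyramidal neuron list and no gene of the granule neuron list. The naming merged these types, so the name does not tell them apart. Of the barcodes, 28 occurred in more than 1 library, 2 of them among the cells used.

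The start of the transcript is shown for 5 members whose levels are described below and for Rpl38, whose run starts at the first base, as a picture of what many members share. Each line holds 60 bases of the RefSeq promoter table (GRCm38.p6), 30 before the annotated start and 30 from it, on the gene's strand. Capitals mark a run of at least 5 bases made of a C followed by C or T that begins within 10 bases of the annotated start on either side. Where several do, the one nearest the start is marked, so other runs can stand in small letters, as upstream in Rps27l.
Rps27 (chr3:90213619-90213678, minus strand): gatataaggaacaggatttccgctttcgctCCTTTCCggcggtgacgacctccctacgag
Rpl38 (chr11:114668550-114668609, plus strand): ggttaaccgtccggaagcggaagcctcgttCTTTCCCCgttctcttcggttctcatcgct
Rps27l (chr9:66946056-66946115, plus strand): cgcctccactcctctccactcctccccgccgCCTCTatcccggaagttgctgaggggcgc
Rpl22l1 (chr3:28805478-28805537, plus strand): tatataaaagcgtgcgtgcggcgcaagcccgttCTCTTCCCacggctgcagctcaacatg
Rpl22 (chr4:152325696-152325755, plus strand): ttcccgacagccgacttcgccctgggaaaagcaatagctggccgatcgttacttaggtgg
Rpl13 (chr8:123102320-123102379, plus strand): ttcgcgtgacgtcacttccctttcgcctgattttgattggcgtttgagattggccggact

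In Rps27 and Rpl38 the run starts at the annotated first base. In Rps27l and Rpl22l1 it starts within a few bases of it, and the windows of Rpl22 and Rpl13 shown here hold none there. A second Rpl22 window of the table, not shown, has a run 7 bases after its annotated start. A second Rps27l window, also not shown, holds no run within 10 bases of its annotated start. The table held 71 windows for 60 members. A run began exactly at the annotated start in 14 of the 71 (19.7%) and in 2.51% of all 32851 windows, and a run began within 10 bases on either side in 54.9% and 30.7%. Only the gene's strand was searched. Annotated starts are often a few bases off the start that cells use, so a missing run says only that these letters are not at that place.

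Among the 7 classes, neuroblast-like cells, the immature neurons, and Cajal-Retzius-cell-like cells, the reelin-secreting neurons born early in development, carried the highest share of ribosomal protein UMIs, and astrocyte-like cells the lowest. Summed over the members, the share in neuroblast-like cells was 15.6% of UMIs in control (15.3 to 16.0), 14.0% in runner (13.9 to 14.1) and 15.7% in aged (15.2 to 16.3). In Cajal-Retzius-cell-like cells it was 13.3%, 12.4% and 14.1% in the same order. Astrocyte-like cells held 5.25% (5.11 to 5.40), 4.52% (4.42 to 4.62) and 4.76% (4.61 to 4.91). The share in neuroblast-like cells was 2.97 to 3.31 times that in astrocyte-like cells of the same library.

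Microglia-like cells, the resident macrophages, followed at 9.42%, 8.02% and 9.39%, and granule-neuron-like cells at 8.82%, 6.84% and 8.97%. Oligodendrocyte-like cells, which make myelin, held 6.78%, 5.49% and 6.18%, and their precursors 6.91%, 6.15% and 5.49%. The first 4 places and the last were taken by the same classes in all 3 libraries. The precursors and the oligodendrocyte-like cells changed places in aged, and their control intervals (6.64 to 7.18 and 6.61 to 6.95) overlapped.

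**Figure D1:**
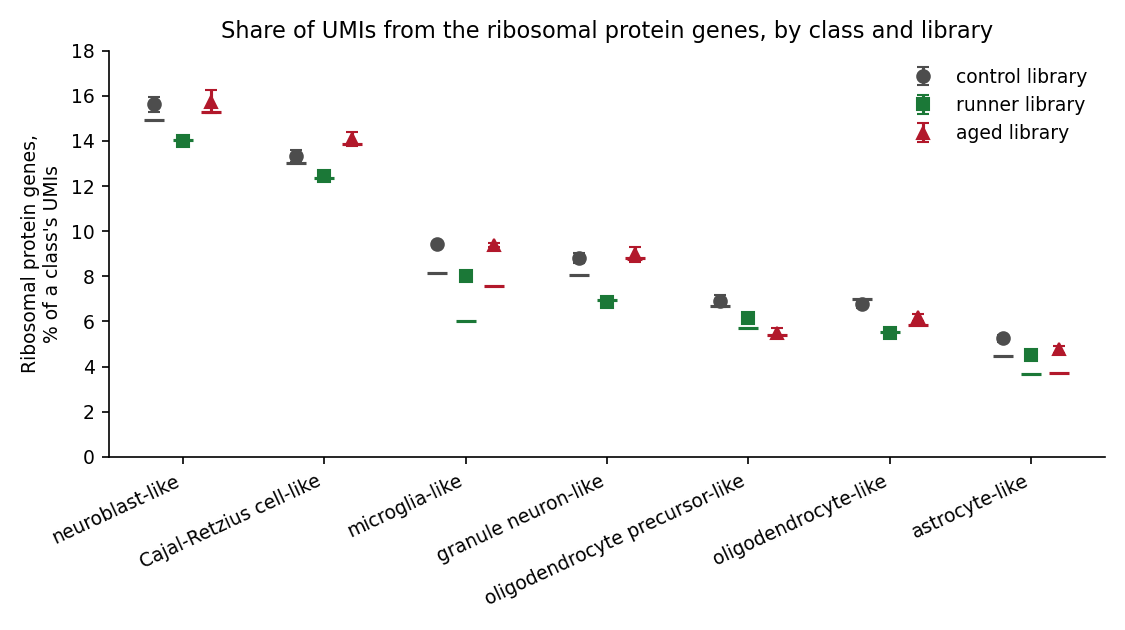
Share of UMIs from the 84 ribosomal protein genes (y axis, percent of all UMIs of a class in a library) for 7 classes; points are sums over the cells of a class with exact 95% intervals for counting error, and short lines are medians over cells. Neuroblast-like cells sit between 14.0% and 15.7% and astrocyte-like cells between 4.52% and 5.25%, with no overlap between these classes in any library.

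The microglia-like class was not uniform, and its clusters took different numbers of cells from each library. Among its clusters the members made up 10.5%, 9.89% and 11.9% of UMIs in one led by C1qa and Trem2 (95 control, 70 runner and 79 aged cells), 9.53%, 8.04% and 9.03% in one led by Ccl4, and 6.80%, 5.85% and 6.48% in one with Rgs1 among its leading genes. Oligodendrocyte-like cells fell into a larger cluster with 6.53%, 5.27% and 6.18%, and a smaller one, with Enpp6 and Neu4 among its leading genes, with 7.58% in 7 control cells, 7.21% in 10 runner cells and 0 aged cells. A small shallow microglia-like cluster of 36 cells led by the haemoglobin gene Hbb-bs held 16.3%, 10.5% and 14.3%. The highest share of any cluster, 26.8%, 27.9% and 29.7%, was in 14 unnamed cells (1 in control) led by Ccl5, Trbc2 and Ltb, at a median of 735.5 UMIs per cell.

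Small-subunit members contributed 39.2% to 43.9% of the member UMIs in the 6 classes other than oligodendrocyte-precursor-like cells, over all libraries. In the precursors they contributed 39.3% (37.3 to 41.3) in control, 35.8% (34.3 to 37.4) in runner and 36.6% (34.5 to 38.7) in aged. Rpl13, a large-subunit protein described below, was the member behind most of that gap. Without it the precursors' small-subunit share was 39.9% to 42.9%, within the 40.3% to 45.2% of the other classes but for its lowest value.

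Member by member, a class was tested against the mean of the other 6 on UMIs summed per class and library, with edgeR's quasi-likelihood test, TMM scaling and the library as a block. A gene was called at a Benjamini-Hochberg adjusted p under 0.05 over 2933 genes, 78 of them members. The 6 members not tested (the 5 pseudogenes and Rpl7l1) had at most 219 UMIs each. The 3 libraries served as the replicates of a class, although they differ in condition.

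In neuroblast-like cells 73 of 78 members were higher and 0 lower, beside 21.1% and 19.7% of all genes tested. Their median log2 difference was 0.77, against -0.15 for all genes. In Cajal-Retzius-cell-like cells 56 were higher and 1 lower, beside 19.3% and 13.2%, with a median of 0.54. Scaled to library totals, the counts were 77 and 69 higher with 0 lower, beside 29.4% and 24.6% of all genes higher and 12.0% and 9.07% lower.

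Astrocyte-like cells called 76 members lower and 0 higher, beside 16.3% and 23.2% of all genes, with a median of -0.72. Precursors called 68 lower and 1 higher, beside 8.42% and 16.3%, with a median of -0.86. Oligodendrocyte-like cells called 44 lower and 1 higher, beside 17.8% and 25.2%, with a median of -0.38. In oligodendrocyte-like cells 25 were lower without the control library and 27 without the runner library. Scaled to library totals, 77, 40 and 62 were lower and 0, 2 and 0 higher in the same order, beside 22.8%, 3.61% and 24.9% lower and 20.3%, 26.9% and 21.3% higher of all genes.

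The direction in microglia-like cells depended on the scaling. With TMM 75 members were higher and 0 lower (36.4% and 25.2% of all genes), at a median of 0.82, but with library totals 16 were higher and 14 lower (20.7% and 50.5%), at a median of 0.04. Computed over all rows, before the gene filter of the fit, the TMM factors of the microglia-like sums were 0.585 to 0.649. The fit itself used factors from the filtered genes, which are not given here. The median of all genes tested was 0.04 with TMM and -0.72 with library totals.

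Granule-neuron-like cells had 23 members lower and 2 higher with TMM (19.6% and 25.4% of all genes), but 10 lower and 14 higher with library totals (14.0% and 31.2%). With TMM 13 were lower without the control library, and 13 without the runner library. The median of all genes also moved by over 0.1 between these scalings in the other classes, from -0.15 to 0.15 in neuroblast-like, -0.09 to 0.11 in Cajal-Retzius-cell-like, -0.12 to 0.12 in granule-neuron-like, -0.10 to -0.28 in astrocyte-like, -0.09 to -0.27 in oligodendrocyte-like and 0.01 to 0.41 in precursor-like cells.

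To see which members departed from the rest, the same fit was scaled to the summed members, so that a value of 0 means a change in step with the sum. Departures on this scale balance one another by construction. On it 11 members were called higher and 15 lower in Cajal-Retzius-cell-like cells (10.1% and 38.0% of all genes), 14 and 9 in neuroblast-like cells (8.42% and 47.0%), 13 and 19 in microglia-like cells (19.8% and 52.3%) and 10 and 11 in granule-neuron-like cells (30.1% and 14.0%). In astrocyte-like cells 5 were higher and 4 lower (43.0% and 3.31% of all genes), in oligodendrocyte-like cells 12 and 3 (37.0% and 8.69%) and in precursors 3 and 9 (43.1% and 1.23%). Values below on the "member scale" are log2 differences from this fit with their SE, and each adjusted p is edgeR's on that scale. The sign of the departure from the member median was the same under every alternative tried for all 25 pairs of a member and a class that passed the naming rule. These pairs were chosen for their distance from that median in the same counts, which makes a shared sign likely. The call was kept in 5 alternatives for Rps26 in microglia-like and 7 for Rps27l in oligodendrocyte-like cells. It was kept in 8 for Rpl29 in Cajal-Retzius-cell-like and 9 for Rpl22l1 in granule-neuron-like cells, and in 12 to 15 for the other pairs.

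The farthest departure was Rpl13 in oligodendrocyte-precursor-like cells. Rpl13 stood at 5760, 6260 and 5554 CPM (UMIs scaled to the total of the class and library, the usual unit of such counts) in control, runner and aged precursors. No other class reached these levels in any library. The next highest were neuroblast-like cells at 3739, 3155 and 4309 CPM and Cajal-Retzius-cell-like cells at 3771, 3951 and 3827 CPM. Oligodendrocyte-like cells had 1940, 1382 and 1664 CPM, and astrocyte-like cells 1128, 1258 and 1489 CPM. On the member scale Rpl13 was 1.86 higher in precursors (SE 0.106, adjusted p = 2.26e-33), and with TMM it was 1.06 higher (SE 0.108), the only member called higher there.

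Rpl13 made up 8.34% of the precursors' member UMIs in control (7.24 to 9.55), 10.2% in runner (9.21 to 11.2) and 10.1% in aged (8.86 to 11.5). In the other 6 classes its share was 2.15% to 3.17% in every library, so the ranges did not overlap. The 3 precursor sums hold 191, 373 and 212 Rpl13 UMIs from 20, 33 and 22 cells. The gene, which lies at chr8:123102350-123105244 on the plus strand of GRCm38, overlaps the annotated gene Gm20388. The 2 listed pseudogene rows of Rpl13 had at most 10 UMIs in any library.

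On the member scale Rpl22 and its paralogue Rpl22l1 moved apart in Cajal-Retzius-cell-like cells. Both encode an RNA-binding protein on the surface of the large subunit, and Rpl22 is known to restrain Rpl22l1. Rpl22l1 was at 1861, 2134 and 2064 CPM there, above every other class in every library. Granule-neuron-like cells came next at 1129, 935 and 1106 CPM, and neuroblast-like cells had 1018, 846 and 593 CPM. On the member scale Rpl22l1 was 0.87 higher in Cajal-Retzius-cell-like cells (SE 0.124, adjusted p = 2.71e-09), and 0.57 higher in granule-neuron-like cells (adjusted p = 0.000431). It fell by 0.84 in neuroblast-like cells (SE 0.151, adjusted p = 1.11e-06) and by 0.51 in microglia-like cells (adjusted p = 0.000101).

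Rpl22 was at 278, 277 and 236 CPM in Cajal-Retzius-cell-like cells and at 708, 520 and 700 CPM in neuroblast-like cells. On the member scale it fell by 0.88 in the former (SE 0.209, adjusted p = 0.000299), from 17, 34 and 11 UMIs. That fall is relative to the summed members, which were high in this class. In CPM Rpl22 was lower still in astrocyte-like and precursor-like cells in every library. In the 6 other classes it did not pass the test on the member scale. Of the UMIs of both genes, Rpl22l1 held 87.0% in control (80.0 to 92.3), 88.5% in runner (84.3 to 91.9) and 89.7% in aged (82.4 to 94.8) Cajal-Retzius-cell-like cells. In neuroblast-like cells it held 59.0% (47.2 to 70.0), 61.9% (57.4 to 66.4) and 45.8% (25.6 to 67.2). A 3' library counts 1 end per molecule, so these shares carry no scaling for length.

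**Figure D2:**
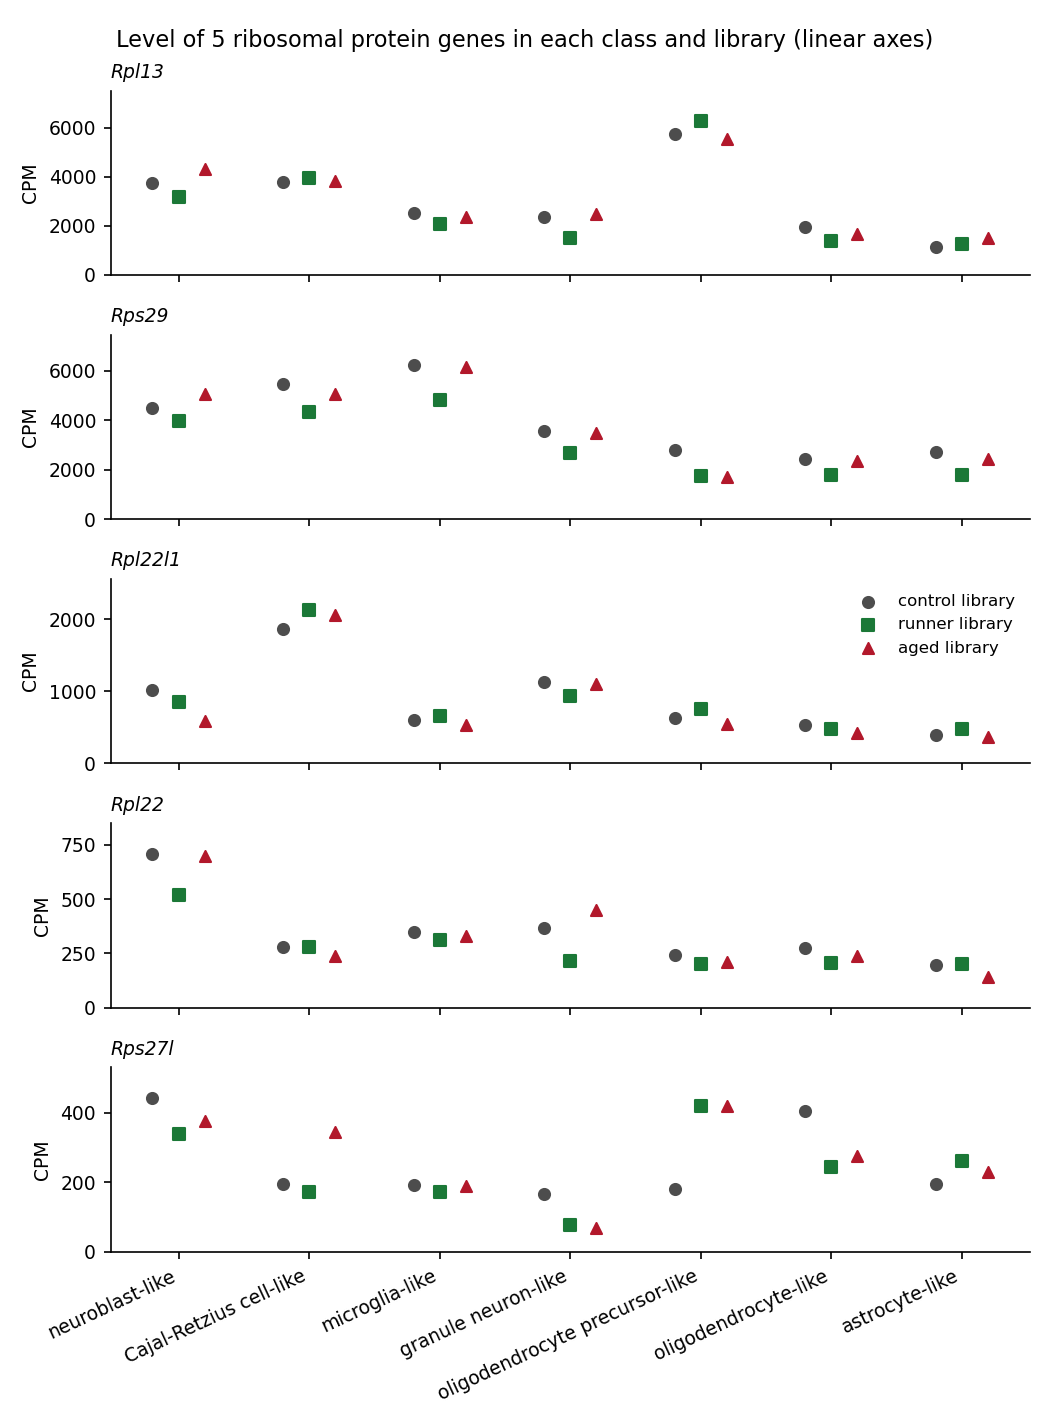
Level of Rpl13, Rps29, Rpl22l1, Rpl22 and Rps27l (y axes, CPM of the summed class, linear from 0) in 7 classes, with 1 point per library and no error bars. Rpl13 stands apart in oligodendrocyte-precursor-like cells at 5554 to 6260 CPM, and Rpl22l1 in Cajal-Retzius-cell-like cells at 1861 to 2134 CPM.

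Rps27l, the paralogue of Rps27 and a known p53 target, followed a pattern of its own. It was at 196, 262 and 231 CPM in astrocyte-like cells, at 181, 420 and 419 CPM in precursors and at 405, 243 and 275 CPM in oligodendrocyte-like cells. Neuroblast-like cells, with 20, 115 and 7 UMIs, stood above astrocyte-like and oligodendrocyte-like cells in CPM in every library, and above precursors in control. In granule-neuron-like cells it was at 166, 76.3 and 69.1 CPM, from 10, 12 and 2 UMIs, the lowest level of any class in each library. On the member scale it was higher in the glial classes other than microglia-like cells. The difference was 0.92 in astrocyte-like cells (SE 0.217, adjusted p = 0.000163), 1.19 in precursors (SE 0.268, adjusted p = 0.000116) and 0.89 in oligodendrocyte-like cells (SE 0.193, adjusted p = 4.55e-05). In these classes most other members were lower, so that with TMM Rps27l was the only member called higher in oligodendrocyte-like cells (0.48, SE 0.186, adjusted p = 0.0257). That last call was lost with library totals (adjusted p = 0.179).

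On the same scale Rps27l fell by 1.32 in granule-neuron-like cells (SE 0.294, adjusted p = 6.81e-05), 0.92 in Cajal-Retzius-cell-like cells (adjusted p = 0.000792) and 0.54 in microglia-like cells (adjusted p = 0.00278). Its share of the UMIs of Rps27l and Rps27 was 2.90% to 6.06% in granule-neuron-like cells and reached 25.4% (15.3 to 37.9) in aged precursors. Within the precursors that share was 9.68% (3.63 to 19.9) in control and 23.1% (15.6 to 32.2) in runner, the former from 6 UMIs of Rps27l. Rps27 itself stayed closer to the sum, with member-scale values between -0.47 in precursors (adjusted p = 0.00323) and 0.32 in microglia-like cells (adjusted p = 0.00308).

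Rps29, a small zinc-binding protein of the small subunit and the member with the most UMIs, led in microglia-like cells. It was at 6214, 4836 and 6139 CPM there, against 5453, 4326 and 5052 in Cajal-Retzius-cell-like and 4492, 3971 and 5064 in neuroblast-like cells. It made up 6.60%, 6.03% and 6.53% of the member UMIs in microglia-like cells and 2.84% to 5.15% in the other classes. On the member scale it was 0.80 higher (SE 0.0959, adjusted p = 4.81e-13), and Rpl10 and Rps4x, both X-linked, were 0.49 and 0.48 higher. Rps26, a small-subunit protein at the messenger RNA exit, was at 509, 435 and 581 CPM, and fell by 0.57 on that scale in microglia-like cells (SE 0.127, adjusted p = 4.23e-05). Its TMM value of 0.27 turned to -0.50 with library totals.

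Rps26 was highest in neuroblast-like cells, at 1637, 1595 and 2532 CPM, where it was 0.72 higher on the member scale (SE 0.134, adjusted p = 1.96e-06). Rplp0, the base of the stalk that recruits elongation factors, was at 2191, 2288 and 1993 CPM in neuroblast-like cells, 0.62 higher on the member scale (adjusted p = 1.26e-05). Rpl15, a core protein of the large subunit, was 0.56 higher (adjusted p = 0.000374).

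The stalk proteins did not move as a unit. In neuroblast-like cells Rplp1, which binds Rplp0 as a dimer with Rplp2, fell by 0.52 (adjusted p = 0.000756) on the member scale while Rplp0 rose. The reverse held in granule-neuron-like cells, where Rplp0 fell by 0.82 (SE 0.166, adjusted p = 1.33e-05) at 648, 407 and 484 CPM and Rplp1 was 0.60 higher (SE 0.133, adjusted p = 7.55e-05) at 1694, 1062 and 1556 CPM. Rplp2 did not pass the test in either class, at -0.20 (adjusted p = 0.198) and 0.26 (adjusted p = 0.106).

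Granule-neuron-like cells had further low members in Rps9 and Rpl39, which fell by 0.74 and 0.64 on the member scale (adjusted p = 8.25e-06 and 0.000147). In Cajal-Retzius-cell-like cells Rpl3, Rps6 and Rps19 were higher by 0.66, 0.54 and 0.52 on that scale. Rpl3 is a core protein near the peptidyl transferase centre, and Rps6 is the known target of S6 kinase.

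Rpl29 was the member called lower in Cajal-Retzius-cell-like cells. It was at 294, 367 and 279 CPM there, from 18, 45 and 13 UMIs, and fell by 1.11 on the member scale (SE 0.194, adjusted p = 9.61e-07). Its TMM value of -0.54 (SE 0.197, adjusted p = 0.0251) was not called with library totals (-0.33, adjusted p = 0.202). In astrocyte-like cells Rpl3 was lower than the other members, at 460, 609 and 539 CPM (-0.52 on the member scale, adjusted p = 0.00153). Rpl5, which carries 5S ribosomal RNA, was at 80.5, 91.1 and 89.9 CPM there, with a member-scale value of -0.63 (adjusted p = 0.0505). In oligodendrocyte-like cells Rpl10a fell by 0.70 (SE 0.186, adjusted p = 0.000906) at 321, 150 and 301 CPM.

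**Figure D3:**
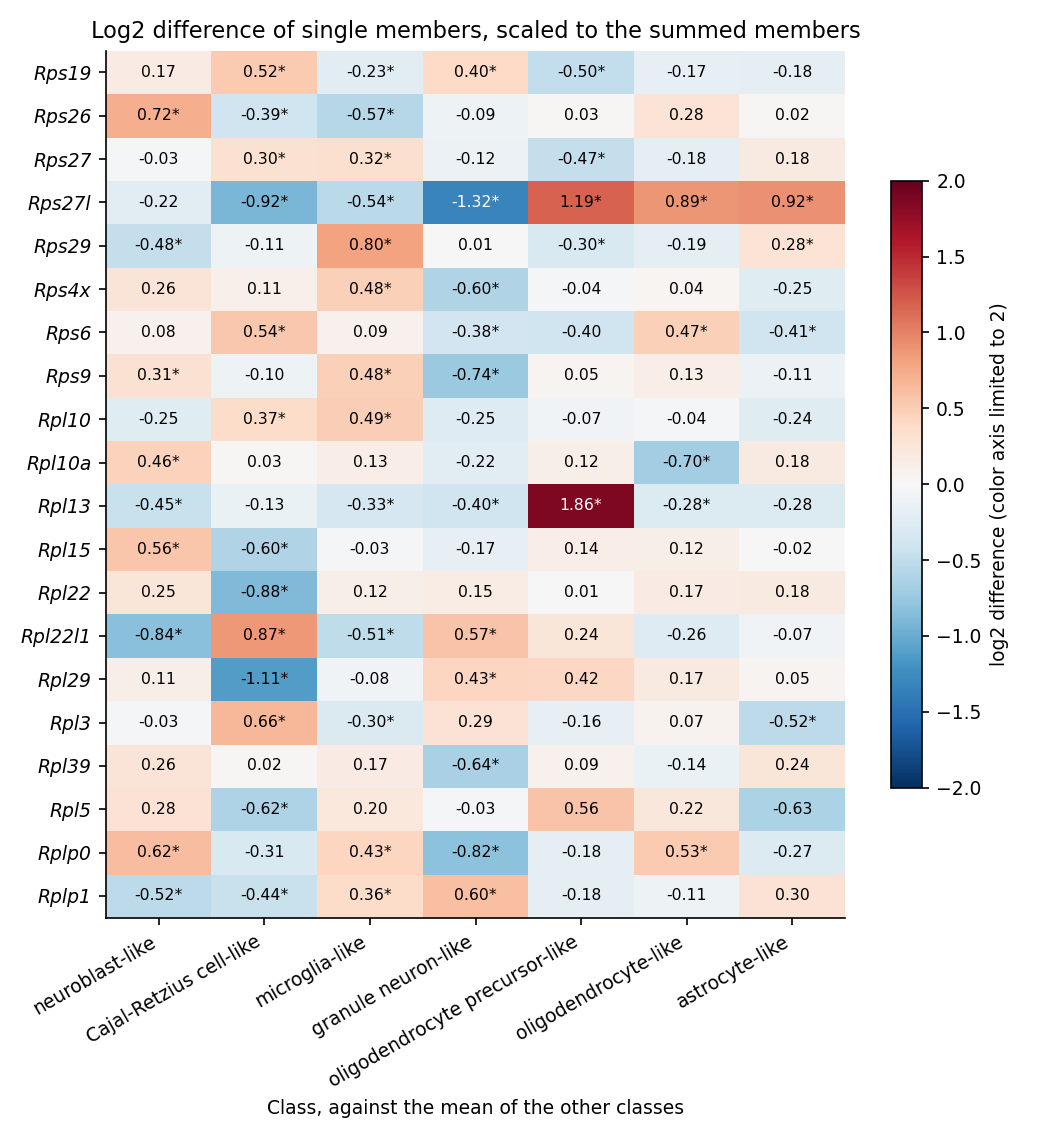
Log2 difference between each class (x axis) and the mean of the other 6, scaled to the summed members, for members named by the rule with Rpl22 and Rps27 added (y axis); red is higher, blue is lower, and an asterisk marks edgeR adjusted p under 0.05 in this fit. The darkest cell is Rpl13 in oligodendrocyte-precursor-like cells at 1.86, and Rps27l runs from -1.32 in granule-neuron-like to 1.19 in precursor-like cells.

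Of the other listed paralogues, Rpl7l1 had 219 UMIs in all and Rps4l 66, too few for a test. Rpl36al lies outside the naming rule. Rpl39l, Rpl3l and Rpl10l were not listed in any table. Of the members, 48 have at least 1 pseudogene or retrotransposed copy row in the tables and 25 overlap another annotated gene, and none of the sources used here says how reads shared with a copy were counted.

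In the runner library the summed members were lower than in control in all 7 classes. In microglia-like cells they were at 80208 CPM in runner and 94199 in control, a ratio of 0.851 (0.840 to 0.864). The ratio was 0.860 (0.829 to 0.892) in astrocyte-like, 0.809 (0.785 to 0.834) in oligodendrocyte-like, 0.776 (0.751 to 0.802) in granule-neuron-like and 0.896 (0.874 to 0.919) in neuroblast-like cells. It was 0.933 (0.908 to 0.958) in Cajal-Retzius-cell-like and 0.891 (0.845 to 0.939) in precursor-like cells. The median ratio of all genes with at least 50 UMIs in both libraries together was 0.971 to 1.07 over these classes.

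Cells of the runner library also had a lower median share of mitochondrially encoded UMIs in 7 of 7 classes (2.58% to 5.56%, against 4.45% to 6.10% in control) and more UMIs per cell in 7 of 7 (medians of 1304.5 to 2823.5 against 1243 to 1819). With mitochondrially encoded UMIs left out of the denominator the ratios were 0.769 to 0.919, and in cells with at least 1000 UMIs 0.771 to 0.926. Below a limit of 5% mitochondrially encoded UMIs the ratio in astrocyte-like cells turned to 1.07, while the other 6 classes stayed below 1. In summed counts scaled to a total, fewer ribosomal protein transcripts per cell and more of all other transcripts cannot be told apart.

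In the aged library the ratios to control lay on both sides of 1. The ratio was 0.997 (0.982 to 1.01) in microglia-like cells, where the cluster led by C1qa and Trem2 held more in aged than in control and the other 3 clusters less. Intervals also held 1 in neuroblast-like cells at 1.01 (0.965 to 1.05) and granule-neuron-like cells at 1.02 (0.970 to 1.07). The members were higher in Cajal-Retzius-cell-like cells at 1.06 (1.02 to 1.09). They were lower in precursors at 0.795 (0.749 to 0.844), in oligodendrocyte-like cells at 0.911 (0.876 to 0.947) and in astrocyte-like cells at 0.907 (0.868 to 0.947), where cells with at least 1000 UMIs gave 0.963 with an interval that held 1 (0.919 to 1.01). The aged oligodendrocyte-like cells all lay in the larger of the class's 2 clusters, which held 6.53% in control and 6.18% in aged. Below the 5% limit the ratio was 1.01 in oligodendrocyte-like cells and the interval in Cajal-Retzius-cell-like cells held 1 (0.953 to 1.05), and with a limit of 20% it was 1.32 in granule-neuron-like cells. Median shares of mitochondrially encoded UMIs were lower than in control in 4 of 7 aged classes, and their part in these ratios was not tested.

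Single members were said to depart from the others in a class when their ratio differed by 1.5-fold or more from the summed ratio, with at least 50 UMIs in both libraries together and an interval that left out the summed ratio. For runner over control, 3 of 76 members departed upward and 0 downward in Cajal-Retzius-cell-like cells, beside 10.2% and 3.35% of all genes. In astrocyte-like cells 5 and 1 of 75 did so (15.1% and 1.62% of all genes), in granule-neuron-like cells 6 and 2 of 76 (20.4% and 0.976%), and in microglia-like cells 3 and 0 of 79 (15.2% and 1.07%). In neuroblast-like cells 1 and 0 of 78 departed (9.57% and 1.79%), in oligodendrocyte-like cells 2 and 3 of 78 (18.4% and 2.64%), and in precursors 1 and 1 of 60 (8.55% and 2.56%). Since the limit is set from the members' own sum, which in runner lay below the median ratio of all genes in every class, these shares do not compare how alike the members and all genes are.

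For aged over control, 4 of 66 departed upward and 1 downward in astrocyte-like cells (7.69% and 3.33% of all genes), and 2 and 1 of 69 in neuroblast-like cells (4.32% and 8.64%). Cajal-Retzius-cell-like cells had 1 and 1 of 72 (1.89% and 12.5%), granule-neuron-like cells 1 and 1 of 65 (2.78% and 6.94%) and oligodendrocyte-like cells 1 and 1 of 73 (13.3% and 4.60%). Precursors had 0 and 1 of 35 (11.8% and 2.78%), and microglia-like cells none of 78 in either direction (5.95% and 4.04%).

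Rps14, a protein of the platform of the small subunit, was below control in all 7 classes of both libraries. In microglia-like cells it was at 2070 CPM in control, 1195 in runner and 1492 in aged. Runner over control was 0.577 (0.520 to 0.641) there, 0.486 (0.378 to 0.626) in granule-neuron-like and 0.556 (0.428 to 0.724) in astrocyte-like cells, and the latter pair met the departure rule. Over the 7 classes the ratio was 0.486 to 0.690 in runner, with 6 intervals below 1, and 0.521 to 0.759 in aged, with 5. Both ratios are against the same control values, the highest of the 3 libraries in every class. Rps14 overlaps the annotated gene Ndst1.

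Rpl35, a large-subunit protein at the exit tunnel, was also lower in all 7 classes of both libraries. In oligodendrocyte-like cells it was at 1643 CPM in control, 793 in runner and 721 in aged, ratios of 0.482 (0.388 to 0.601) and 0.439 (0.315 to 0.604), which met the departure rule in both. In astrocyte-like cells it was at 1277, 854 and 770 CPM, and met the rule in aged alone. Neither gene stood alone in this: Rpl36, Rps23 and Rps27, named after their values were seen, were also below 1 in every class of both libraries. Rps29, described above for microglia-like cells, was lower in runner in all 7 classes at 0.622 to 0.884, without meeting the rule in any.

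Rpl24, a large-subunit protein that reaches across to the small one, was above 1 in all 7 classes in runner, at 1.10 to 1.74. In Cajal-Retzius-cell-like cells it was at 898 CPM in control, 1548 in runner and 946 in aged. Runner over control was 1.72 (1.27 to 2.37) there and 1.74 (1.11 to 2.83) in astrocyte-like cells. Rpl24 also met the departure rule in runner granule-neuron-like cells, at 1.46 (0.966 to 2.25). In aged granule-neuron-like cells it was at 1141 CPM against 498, a ratio of 2.29 (1.35 to 3.89) from 33 and 30 UMIs.

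Rpl27, another large-subunit protein, rested on fewer UMIs. In neuroblast-like cells it was at 686 CPM in control, 1328 in runner and 1023 in aged, and runner over control was 1.94 (1.34 to 2.88). It departed upward in runner granule-neuron-like cells too, at 1.72 (1.02 to 3.05) from 81 and 18 UMIs. In Cajal-Retzius-cell-like cells it did so at 1.82 (1.17 to 2.93) in runner and 1.87 (1.10 to 3.22) in aged, both against the same 26 control UMIs. In oligodendrocyte-like cells it was at 0.849 (0.604 to 1.21) and 0.726 (0.446 to 1.17).

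Rps2, a small-subunit protein at the entry of the messenger RNA channel, was at 729, 968 and 961 CPM in microglia-like cells, 1.33-fold (1.15 to 1.54) in runner and 1.32-fold (1.11 to 1.57) in aged. It departed upward in runner astrocyte-like, Cajal-Retzius-cell-like and microglia-like cells and in aged astrocyte-like cells, where Rpl24 did so too. Its pseudogene row Rps2-ps10 was at 97.1, 320 and 188 CPM over all cells used.

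The remaining departures were scattered over members and classes. In runner they included Rpl3, Rpl6 and Rpl15 upward in astrocyte-like cells, Rps28, Rpl23 and Rpl7 upward and Rps15 downward in granule-neuron-like cells, and Rpl5 and Rpl7l1 upward in microglia-like cells. Oligodendrocyte-like cells had Rpl15 and Rps28 upward and Rpl30 and Rpl10a downward, and precursors Rpl3 upward and Rps21 downward. For each upward member in this runner list the interval held 1, since the summed ratios it departs from lay below 1. In aged the remaining departures included Rpl35a and Rpl23a upward in astrocyte-like cells, with intervals that held 1 too. They also included Rps26 upward and Rps2 downward in neuroblast-like cells, Rps3a1 upward in oligodendrocyte-like cells, Rpl15 downward in Cajal-Retzius-cell-like cells and Rpl36 downward in granule-neuron-like cells. Of all departures, the farthest upward was Rpl24 in aged granule-neuron-like cells and the lowest ratio was that of Rpl30 in runner oligodendrocyte-like cells, 0.412 (0.269 to 0.636).

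**Figure D4:**
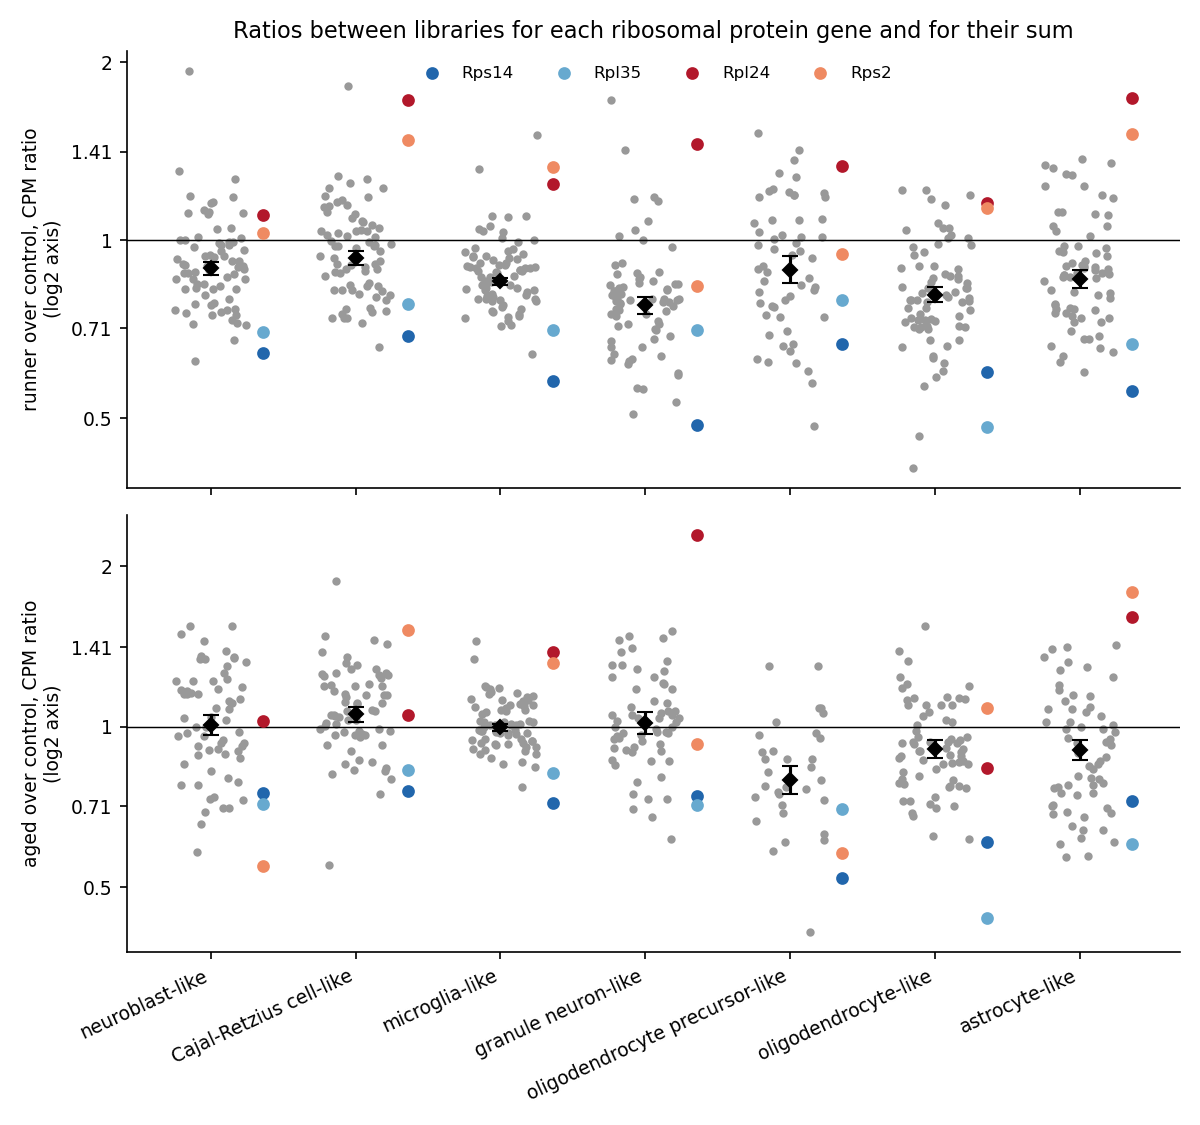
CPM ratio of runner over control (top) and aged over control (bottom) on log2 axes for 7 classes; grey and colored dots are single members with at least 50 UMIs in both libraries together, and black diamonds are the summed members with 95% intervals for counting error. All 7 diamonds lie below 1 in the top panel, Rps14 and Rpl35 lie below 1 in every class of both panels, and Rpl24 lies above 1 in every class of the top panel.

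The tables also list 101 rows named as copies of ribosomal protein genes (with the suffix ps or rt), kept apart from the members. Their sum was 1874 CPM in the control cells used, 3897 in runner and 2741 in aged, ratios of 2.08 (1.97 to 2.20) and 1.46 (1.36 to 1.57). The largest were Rps27rt at 269, 769 and 458 CPM and Rpl37rt at 197, 538 and 347 CPM. Of the rows with at least 50 UMIs in both libraries together, 20 of 24 were above 1 in runner and 13 of 16 in aged. Within the 7 classes, 41.9% to 54.0% of all genes with that many UMIs were below 1 in runner and 46.2% to 61.8% in aged. The sum was higher in runner than in control in 7 of 7 classes and higher in aged in 6 of 7, all but the precursors. The parent Rps27 was lower than in control in all 7 classes of both libraries, at ratios of 0.763 to 0.892 in runner and 0.705 to 0.971 in aged.

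**Figure D5:**
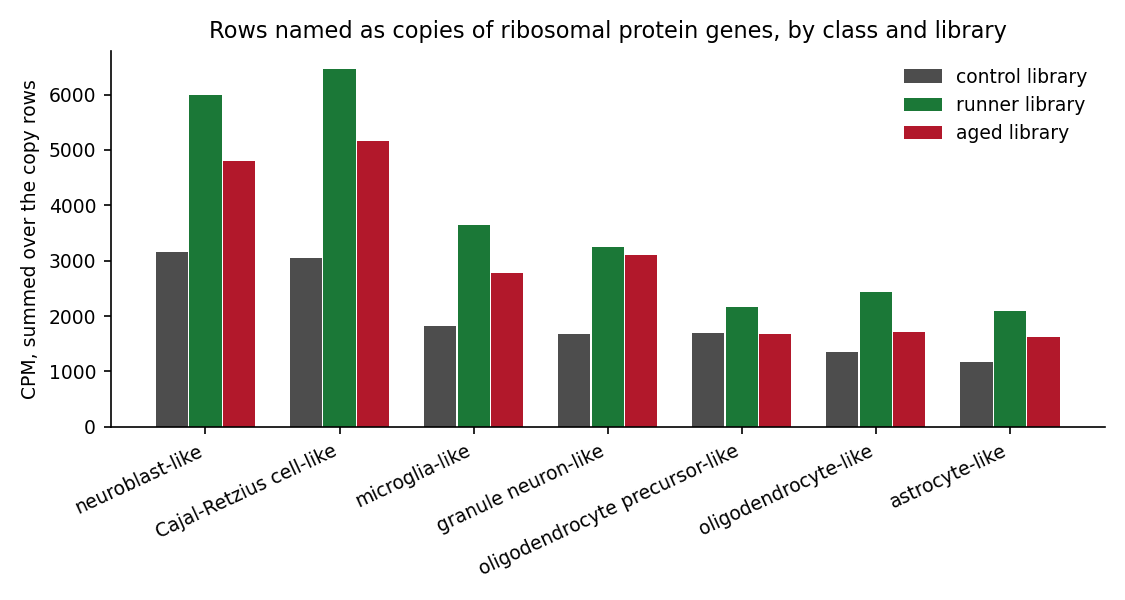
Summed level of the 101 rows named as copies of ribosomal protein genes (y axis, CPM, bars from 0) by class and library, with 1 bar per library and no error bars. The runner bar is the tallest of its class in 7 of 7 classes, and control spans 1174 to 3164 CPM against 2089 to 6469 in runner.

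Rows of ribosomal proteins outside the naming rule were counted in the same way, and the shares of all genes given above for each class and scaling (21.1% higher and 19.7% lower in neuroblast-like cells with TMM) serve for the lists that follow. The 6 listed include Rpsa, Fau and Rack1, and also Rps27rt, a copy row described above, which gave 1 call in each class named here but neuroblast-like cells. Of them 5 were higher and 0 lower in neuroblast-like cells, 3 and 0 in Cajal-Retzius-cell-like cells, and 0 and 5 in astrocyte-like, 0 and 4 in precursor-like and 0 and 3 in oligodendrocyte-like cells with TMM. In microglia-like cells 6 were higher and 0 lower with TMM, but 2 and 1 with library totals. Rpsa, the laminin receptor protein of the small subunit, was at 1217, 969 and 1347 CPM in neuroblast-like cells and at 184, 239 and 424 CPM in astrocyte-like cells.

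Elongation factors, which move the ribosome along the message, had 6 of 8 tested members higher and 0 lower in neuroblast-like cells, and 6 lower and 0 higher in astrocyte-like cells (16.3% and 23.2% of all genes). In microglia-like cells 6 were higher and 0 lower with TMM, but 2 and 2 with library totals. Eef1a1, which delivers the aminoacyl-tRNA, was at 2567, 2464 and 3501 CPM in neuroblast-like cells and 587, 495 and 591 CPM in astrocyte-like cells. Of 20 initiation factors tested, 9 were higher and 1 lower in neuroblast-like cells, and 8 lower and 0 higher in astrocyte-like cells. In microglia-like cells 10 were higher and 1 lower with TMM, but 3 and 9 with library totals. The helicase Eif4a2 was highest in Cajal-Retzius-cell-like cells at 1420, 2200 and 1827 CPM, 1.74 higher with TMM (SE 0.133, adjusted p = 1.17e-27).

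Of 7 ribosome assembly genes tested, 6 were higher in neuroblast-like cells and 0 lower, among them the nucleolar chaperone Npm1 at 642, 605 and 539 CPM. Of 36 proteins of the mitochondrial ribosome, 2 were higher and 3 lower in neuroblast-like cells with TMM (21.1% and 19.7% of all genes), but 6 and 1 with library totals (29.4% and 12.0%). In astrocyte-like cells 6 were higher and 2 lower with TMM (23.2% and 16.3%), but 1 and 3 with library totals (20.3% and 22.8%). In the runner library the summed initiation factors were between 0.909 (0.766 to 1.08) in precursors and 1.29 times control (1.14 to 1.47) in astrocyte-like cells, with 1.25 (1.12 to 1.40) in neuroblast-like, 1.17 (1.04 to 1.31) in Cajal-Retzius-cell-like and 1.08 (1.02 to 1.13) in microglia-like cells. They were at 0.967 (0.855 to 1.10) in granule-neuron-like and 0.952 (0.865 to 1.05) in oligodendrocyte-like cells. The elongation factors were between 0.900 (0.758 to 1.07) in granule-neuron-like and 1.19 (1.05 to 1.35) in neuroblast-like cells, the only class whose interval left out 1.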

How the data were processed

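The authors deposited raw UMI counts per gene and barcode for 3 libraries, made with Cell Ranger 2.1.1 on GRCm38 (Seurat 3.1.0 is also named), per the submitters' processing notes. None of the sources used here says how reads that match several genes were counted. Barcodes with at least 200 genes and under 10% mitochondrially encoded UMIs were kept, and Scrublet calls (1, 6 and 1 in control, runner and aged) were removed. Cells were clustered in Scanpy 1.11.5 (2000 variable genes without the members, 30 components, Leiden resolution 1), and clusters were named from marker lists. The members, lists and naming thresholds were chosen with earlier results of these data known.

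Counts summed per class and library were tested with edgeR 4.0.16 (R 4.3.3; TMM, library block), and tested on simulated counts for the precursor contrast over 2032 genes, which called 50 of 50 genes at 4-fold, 24 of 48 at 2-fold, 23 of 42 at 0.25-fold, 16 of 44 at 0.5-fold and 2 of 1848 unchanged genes. The simulation gave all classes and libraries the same gene means and a fixed spread, apart from the genes changed in precursors. The real classes and libraries differ in many genes, so these call rates need not hold for them. Scaling to library totals and to the summed members was chosen after seeing the data. Shares carry exact Clopper-Pearson intervals and CPM ratios exact conditional binomial intervals (SciPy 1.17.1). Total depth was 2330698, 3808360 and 2537567 UMIs. Named were, per class, up to 5 called members per direction at least 0.5 (log2) from the member median, up to 6 departing members per class and direction between libraries, the paralogue pairs, the stalk proteins and members missing from a table. Of the other lists, at most 3 called members could be named. A few genes that met these rules are not reported here by name, but stayed in the fits and counts. DESeq2 1.42.0, other cell filters, other clusterings and leaving out each library were the alternatives.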

Additional observations from a re-analysis of the deposited data

Results flagged for a closer look

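Several members moved in opposite directions in different classes of the aged library, with intervals on opposite sides of 1, and these differences between classes were not tested. They were picked out of all members and classes by those intervals, which cover counting error only. The Rps2 ratio of aged over control was 1.52 in Cajal-Retzius-cell-like, 1.79 in astrocyte-like and 1.32 in microglia-like cells. It was 0.549 (0.298 to 0.953) in neuroblast-like cells, from 16 UMIs in 12 aged cells. Rpl32 was at 0.640 in astrocyte-like and 1.51 in granule-neuron-like cells. The summed members were at 1.06 in Cajal-Retzius-cell-like cells but at 0.907 in astrocyte-like, 0.911 in oligodendrocyte-like and 0.795 in precursor-like cells.

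A signal also lay outside the members and the cells used. The rows named as copies of ribosomal protein genes, over all cells used, were at 2.08 times control in runner and 1.46 times in aged. These pooled ratios also carry the different class make-up of the libraries. Among barcodes with 30% or more mitochondrially encoded UMIs, which were left out, the members made up 28.9% of the other UMIs in aged, 26.3% in control and 25.3% in runner, against 8.92%, 9.51% and 8.61% in barcodes under 10%.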

How the results depend on the processing

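With library totals, members called in granule-neuron-like cells went from 2 to 14 higher and from 23 to 10 lower, in microglia-like cells from 75 to 16 higher and from 0 to 14 lower, and in precursors from 1 to 2 higher and from 68 to 40 lower. The member lower in Cajal-Retzius-cell-like cells (1) went to 0 with library totals, with limits of 5% and 20% mitochondrially encoded UMIs, with no count filter and with no library block. The member higher in oligodendrocyte-like cells (1) went to 0 with library totals, DESeq2, Leiden resolution 0.5, both mitochondrial limits and no block. The higher count in precursors was 2 at resolution 0.5 and at both limits. Members higher in granule-neuron-like cells were 5 at the 20% limit, 0 with no count filter and 1 with no block. Members lower in oligodendrocyte-like cells were 14 with no count filter, and at the 5% limit 40 were lower in astrocyte-like and 36 in precursor-like cells. Leaving out each library in turn gave 13 to 23 lower and 0 to 2 higher in granule-neuron-like cells, 25 to 37 lower and 0 to 1 higher in oligodendrocyte-like cells, and 0 to 1 lower in Cajal-Retzius-cell-like cells. The causes were not tested.

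At the 5% limit the runner ratio was 1.07 in astrocyte-like and 0.872 in oligodendrocyte-like cells, and the aged ratio 0.683 in astrocyte-like, 1.03 in microglia-like and 1.01 in oligodendrocyte-like cells. At the 20% limit the runner ratios were 0.819 and 0.763 in astrocyte-like and oligodendrocyte-like cells, the aged ratio in oligodendrocyte-like cells 0.955, and 1 member departed in aged microglia-like cells. In cells with at least 1000 UMIs the aged ratio was 0.963 (0.919 to 1.01) in astrocyte-like and 1.02 in microglia-like cells, and it was 0.951 in oligodendrocyte-like cells with doublet calls kept. The runner ratio in microglia-like cells was 0.837 without mitochondrially encoded UMIs. Against aged in place of control, runner was at 0.949 in astrocyte-like, 0.888 in oligodendrocyte-like and 1.12 in precursor-like cells. The fold of neuroblast-like over astrocyte-like shares was 3.66 (control) and 3.01 (runner) at 5%, 2.56 and 2.76 at 20%, and 2.99 (runner) and 3.09 (aged) from 1000 UMIs. Rps26 in microglia-like cells turned to -0.50 with library totals and Rps27l in oligodendrocyte-like cells to -0.19 at 5%. Too few aged cells fell in the neuroblast-like class for a value at either limit, and in the granule-neuron-like class at 5%. Cells were clustered and named anew at each limit, so a class can lose cells at 20% too. Classes of 12 to 22 aged cells set the depth. No paired analysis was possible because each group has 1 library and so the groups share fewer than 2 replicate numbers.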
